A study of Mus musculus with 2 samples.

Results

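The mRNA of 7 GABA-A receptor subunit genes, *Gabra2*, *Gabra3*, *Gabra5*, *Gabrb1*, *Gabrb2*, *Gabrg1* and *Gabre*, was followed across the cell classes of the mouse ventral parafacial region. The 7 genes were taken by symbol from the 28692 genes listed in the count tables, and all 7 are present in both libraries. The region was profiled by single-cell RNA sequencing in 10-day-old C57BL6/J mice in 2 libraries, 1 from untreated mice and 1 from mice given 4OH-tamoxifen at 0.2 mg per day for 3 days, each from 8 pooled animals (4 male and 4 female). The mice of both libraries are wild type and labelled with the same strain, which the counts do not check. Condition, batch and library are the same split, so they cannot be told apart, and with 1 library per condition there is no test and no replicate check of any difference.

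The values are unique molecular identifiers (UMIs), each a count of 1 captured transcript, and 3339 untreated and 8558 4OH-tamoxifen cells passed the filters, with a median of 3628 and 2411 UMIs per cell. Cells were placed in 9 classes by their own UMIs of marker genes, which held 1988 (59.5%) and 4572 (53.4%) of these cells. The neuronal classes were *Nmb* (24 untreated and 55 4OH-tamoxifen cells), *Slc17a6* without *Nmb* (13 and 64), *Slc32a1* (83 and 295), *Chat* (19 and 86) and *Dbh* (7 and 16). The glial classes were *Aqp4* (817 and 1690), *Pdgfra* (287 and 583), *Mog* (387 and 1223) and *C1qa* (351 and 560). Markers that the gates did not use were highest in their own class in both libraries for 4 of 4 genes in the *Nmb* class, 3 of 3 in *Slc32a1*, 4 of 4 in *Chat*, 4 of 5 in *Dbh*, 6 of 6 in *Aqp4*, 5 of 5 in *Pdgfra*, 5 of 5 in *Mog* and 5 of 5 in *C1qa*. In the *Slc17a6* class this was so for 1 of 4, and the 4 *Chat* class markers together reached 453 and 782 counts per 1000000 UMIs (CPM) there, against 145 and 208 CPM of the 4 markers of the class itself, so it is called only by its gate. In the *Dbh* class of the 4OH-tamoxifen library, 3 endothelial and 3 pericyte markers held 59 and 40 UMIs, against 3 and 2 in the untreated library. The libraries share 40 cell barcode sequences.

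GABA-A receptors are chloride channels opened by GABA, the main inhibitory transmitter of the brain, and each is built of several subunits around a pore. Most synaptic receptors join α and β subunits, which form the GABA site, with a γ subunit, which anchors the receptor at the synapse and sets its response to benzodiazepines. The ε and θ subunits can take part in receptors of hypothalamic and brainstem neurons, and astrocytes and oligodendrocyte precursors also carry functional GABA-A receptors. Around the retrotrapezoid nucleus, whose *Nmb* neurons drive breathing in response to CO2, inhibitory input reaches neurons through such receptors.

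The subunit genes lie in clusters. On chromosome 5 (mm10, GRCm38), *Gabrg1* (70751047 to 70842617, minus strand), *Gabra2* (70957597 to 71095849, minus) and *Gabrb1* (71658113 to 72149037, plus) are neighbours, with *Gabra4* before *Gabrb1*. *Gabre* (72255999 to 72274803, minus) and *Gabra3* (72432681 to 72656848, minus) lie on the X chromosome beside *Gabrq*, *Gabra5* on chromosome 7 (57407672 to 57510059, minus) and *Gabrb2* on chromosome 11 (42419757 to 42629028, plus). *Gabra5* and *Gabrb1* each overlap a gene on the opposite strand, which for the start of *Gabrb1* is *Gabra4*. Whether the counting used strand is not given in the sources used here, so reads in these overlaps are uncertain.

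The promoters of *Gabrg1* and *Gabra2* are shown because these neighbours on chromosome 5 had similar profiles over the classes, and yet differ in base composition. Each is the 250 bases before the RefSeq start on the minus strand of chromosome 5 (GRCm38.p6), read 5′ to 3′, with capitals marking TAAT or ATTA, the core that many homeodomain factors bind, on either strand.
Gabrg1, chr5:70842618-70842867: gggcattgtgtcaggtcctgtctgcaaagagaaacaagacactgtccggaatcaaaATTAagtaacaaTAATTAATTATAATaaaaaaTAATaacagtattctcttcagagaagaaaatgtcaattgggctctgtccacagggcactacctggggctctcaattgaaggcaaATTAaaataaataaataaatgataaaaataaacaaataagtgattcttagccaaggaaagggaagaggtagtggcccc
Gabra2, chr5:71095850-71096099: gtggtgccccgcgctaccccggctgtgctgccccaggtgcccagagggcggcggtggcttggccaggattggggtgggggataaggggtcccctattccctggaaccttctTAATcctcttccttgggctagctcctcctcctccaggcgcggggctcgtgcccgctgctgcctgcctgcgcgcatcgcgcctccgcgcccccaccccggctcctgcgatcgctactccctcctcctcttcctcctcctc
The *Gabrg1* window holds 8 such matches, overlapping ones counted separately, 1 CG dinucleotide and 35.6% G and C, and the *Gabra2* window 1 match, 18 CG dinucleotides and 70.0% G and C. Of the 32851 promoter windows of the table, 54.9% hold at least 1 match and 1.12% at least 8, and the median window holds 6 CG dinucleotides. All 7 genes matched this table, with 11 windows.

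The levels are sums of UMIs over the cells of a class, in CPM, with an exact Poisson 95% interval that covers counting error only. Reads come from the 3′ end of transcripts and are not scaled by length, so a gene is compared across classes and not with another gene. The *C1qa* class served as the background of free RNA. In bulk sums of a class, fewer cells with a transcript and fewer transcripts per cell cannot be told apart, and the share of cells with a UMI is therefore given beside the main levels.

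**Figure D1:**
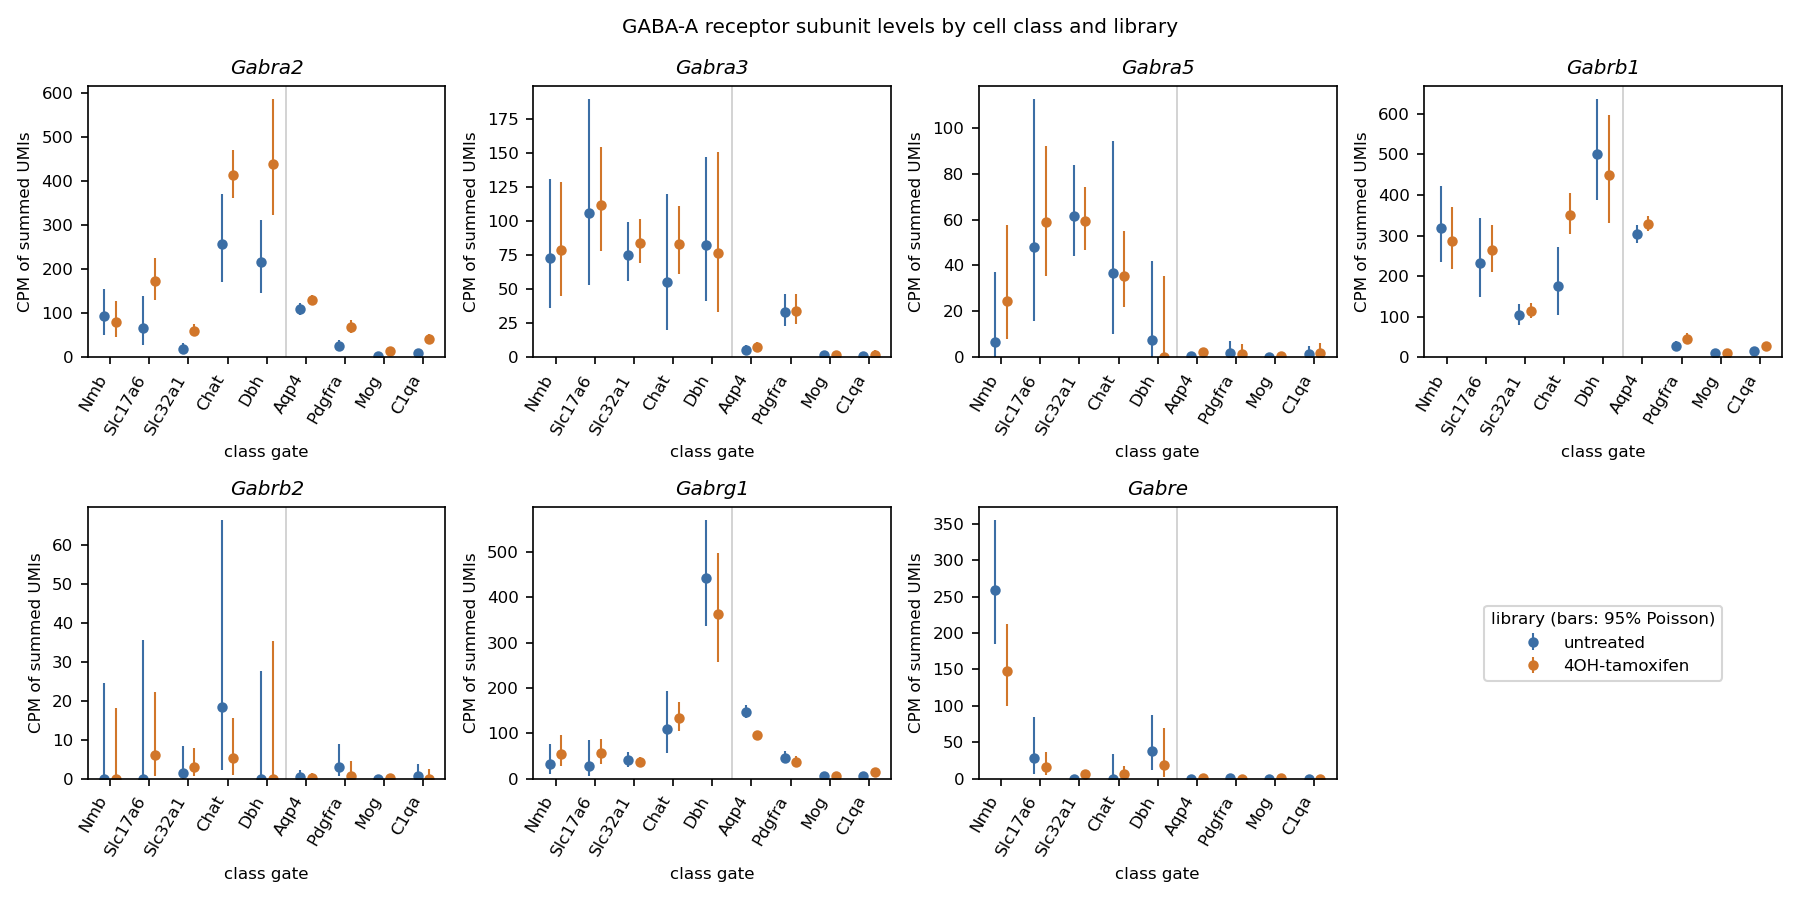
Level of each subunit gene (CPM of summed UMIs, linear axis from 0) in 9 cell classes, with the 5 neuronal classes left of the grey line and the 4 glial classes right of it. Blue points are the untreated and orange points the 4OH-tamoxifen library, and bars are exact Poisson 95% intervals. *Gabre* is highest in the *Nmb* class at 259 and 148 CPM, *Gabrg1* in the *Dbh* class at 442 and 364 CPM, and *Gabra3* and *Gabra5* are near 0 in the *Mog* and *C1qa* classes.

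Among the α subunits, which set where in a neuron the receptor sits and how it responds to drugs, *Gabra2* was highest in cholinergic and catecholaminergic neurons. In the *Chat* class, gated by the gene of the enzyme that makes acetylcholine, it reached 257 CPM (171 to 372) in the untreated and 414 CPM (363 to 471) in the 4OH-tamoxifen library. The *Dbh* class had 217 CPM (145 to 312) and 440 CPM (322 to 587). These top classes did not differ beyond counting error in either library, and *Dbh* was above the next class, *Slc17a6*, in both. The *Slc17a6* class had 67.5 and 174 CPM, the *Aqp4* class 109 and 130 CPM and the *Nmb* class 93.1 and 79.1 CPM, and neighbours among these overlapped in both libraries. After each cell was thinned to 2000 UMIs, 52.9% and 46.4% of *Chat* cells and 2.08% and 7.79% of *C1qa* cells had a UMI of *Gabra2*, and before thinning 68.4% and 65.1% against 3.42% and 9.82%. The *Slc32a1* class had 18.04 and 60.2 CPM against 8.80 and 40.9 CPM in the *C1qa* class, and its thinned shares of 4.82% and 7.53% (median depth 7657 and 4061 UMIs, against 3997 and 2312.5 in *C1qa*) are at the background in the 4OH-tamoxifen library. The *Mog* class, at 3.10 and 14.0 CPM, was below the background in both libraries.

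*Gabra3*, an α subunit of monoaminergic and brainstem neurons, was nearly even over the neuronal classes. Its level ran from 55.2 CPM (20.2 to 120) in *Chat* to 106 CPM (53.0 to 190) in *Slc17a6* in the untreated library, and from 76.6 CPM (33.1 to 151) in *Dbh* to 112 CPM (78.2 to 155) in *Slc17a6* in the 4OH-tamoxifen library. No neighbouring pair of neuronal classes differed beyond counting error in either library. Oligodendrocyte precursors, the *Pdgfra* class, had 33.4 CPM (22.96 to 46.8) and 34.3 CPM (24.7 to 46.3), above every other glial class. The *Aqp4* class had 5.09 and 7.65 CPM, and the *Mog* and *C1qa* classes were at 1.97 CPM or below.

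*Gabra5*, which encodes the α subunit of extrasynaptic receptors in hippocampus, was a neuronal transcript with its highest values in *Slc32a1* and *Slc17a6* cells. It reached 61.6 CPM (44.2 to 83.6) and 59.4 CPM (46.9 to 74.3) in the *Slc32a1* class. The *Slc17a6* class had 48.2 CPM (15.7 to 113) and 58.9 CPM (35.5 to 92.0), and the *Chat* class 36.8 CPM (10.0 to 94.2) and 35.5 CPM (21.7 to 54.9), which overlap the *Slc32a1* values. The *Nmb* class had 6.65 CPM (0.168 to 37.0) from 1 UMI and 24.7 CPM (8.03 to 57.7) from 5 UMIs, which overlap the *Chat* values in both libraries. The *Dbh* class held 1 UMI in untreated cells and 0 after 4OH-tamoxifen, which allows up to 28.7 CPM, and every glial class was at 2.11 CPM or below.

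Of the β subunits, which complete the GABA site, *Gabrb1* was a transcript of astrocytes as much as of neurons. The *Aqp4* class had 304 CPM (283 to 326) and 330 CPM (312 to 349), from 775 and 1250 UMIs. After thinning, 45.3% and 45.1% of *Aqp4* cells had a UMI, against 3.56% and 3.64% of *C1qa* cells (before thinning 55.3% and 47.4% against 5.70% and 6.07%, at a median of 2746 and 2049 UMIs in *Aqp4* cells). The *Dbh* class was at 502 CPM (389 to 637) and 450 CPM (330 to 598), above the *Aqp4* class beyond the intervals in 1 of 2 libraries. In the *Nmb* class the level was 319 CPM (235 to 423) and 287 CPM (218 to 371), which overlaps that of the *Aqp4* class in both libraries. The level in untreated *Nmb* cells rests in part on 1 cell with 17 of 48 UMIs, and without it the value was 225 CPM. *Slc17a6* cells had 232 and 264 CPM and *Chat* cells 175 and 352 CPM. The *Slc32a1* class was lowest of the neuronal classes at 104 CPM (80.7 to 131) and 113 CPM (95.8 to 133), below the *Slc17a6* class beyond the intervals in both libraries. In untreated *Slc17a6* cells 11 of the 24 UMIs were in 1 cell, and without it the level was 145 CPM. The *Mog* class had 10.4 CPM in each library, under the 14.9 and 28.4 CPM of the *C1qa* class. *Gabrb2* was hardly captured: 20 UMIs in all gated cells of both libraries, at most 3 UMIs in any neuronal class other than *Slc32a1* (1 and 4 UMIs), and 0 in the *Nmb* and *Dbh* classes. Its highest value, 18.4 CPM in untreated *Chat* cells, is 2 UMIs (2.23 to 66.4 CPM), and no order of classes was detectable at this depth.

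*Gabrg1* encodes a γ subunit of restricted use in the brain. It was highest in the *Dbh* class, with 442 CPM (336 to 570) from 59 UMIs and 364 CPM (257 to 499) from 38 UMIs, above every other class in both libraries. All 7 untreated *Dbh* cells and 10 of 16 in the 4OH-tamoxifen library had a UMI. Leaving out the *Dbh* cell with the most UMIs gave 405 and 307 CPM, and leaving out cells with 5 or more vessel marker UMIs gave 442 and 410 CPM. The *Chat* class, at 110 CPM (57.0 to 193) and 135 CPM (106 to 169), and the *Aqp4* class, at 148 CPM (133 to 164) and 95.8 CPM (86.2 to 106), came next. The other neuronal classes and *Pdgfra* cells lay between 28.9 and 55.8 CPM and neighbours in order among them overlapped in both libraries. The *C1qa* class had 6.77 and 13.9 CPM and the *Mog* class 6.77 and 6.53 CPM.

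*Gabre*, which encodes the ε subunit, found in receptors that resist benzodiazepines, was highest in the *Nmb* class. It had 259 CPM (184 to 354) from 39 UMIs in 18 of 24 untreated cells and 148 CPM (100 to 212) from 30 UMIs in 24 of 55 4OH-tamoxifen cells. The *Nmb* class was above every other class beyond the intervals in both libraries, and no cell held more than 5 of its UMIs. The *Dbh* class had 37.5 CPM from 5 UMIs and 19.1 CPM from 2 UMIs, and the *Slc17a6* class 28.9 CPM from 3 and 15.5 CPM from 5 UMIs. *Slc32a1* and *Chat* cells held 0 UMIs in the untreated and 8 and 4 UMIs (6.17 and 7.11 CPM) in the 4OH-tamoxifen library. Glial classes were at 1.01 CPM or below, and the *C1qa* class held 0 UMIs in both libraries.

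The classes were then set against each other. A gene counted as measured with at least 20 UMIs over both groups in each library, and was called where its CPM ratio reached 2 in the same direction in both libraries. Over neurons as a whole against the 4 glial classes, 4 of the 6 measured subunits were called higher in neurons, where 22.3% of 12963 genes were, and 0 were called lower (18.2% of genes). The ratios of the 4 were 2.02 (1.58 to 2.56) and 3.29 (2.92 to 3.71) for *Gabra2*, 12.2 and 14.4 for *Gabra3*, 76.7 (30.9 to 246) and 36.5 (22.4 to 62.7) for *Gabra5*, and 173 (45.4 to 1473) and 56.2 (22.5 to 181) for *Gabre*. *Gabra5* and *Gabre* reached 20 UMIs only through the neurons, since glia held 5 and 19 UMIs of *Gabra5* and 2 and 5 of *Gabre*. The ratios of *Gabrb1*, 1.94 and 2.15, and of *Gabrg1*, 1.71 and 2.27, lay on either side of the limit.

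The neuronal sums weight classes by their UMIs. Of all neuronal UMIs, *Slc32a1* cells held 57.3% and 52.1%, whereas the 7 untreated *Dbh* cells alone held 29 of the 90 neuronal UMIs of *Gabra2* and 59 of the 106 of *Gabrg1*. Without the *Dbh* class the call of *Gabra2* was lost, at 1.55 (1.16 to 2.04) and 3.07 (2.71 to 3.48), and *Gabrg1* turned to 0.855 (0.620 to 1.16) in the untreated library, with 1.90 (1.57 to 2.28) in the other. Higher marker minimums, at 1.48 (1.11 to 1.94) and 2.79 (2.39 to 3.24), took the call from *Gabra2* as well. Thinning did so too, at 1.79 (1.16 to 2.67) and 1.81 (1.46 to 2.24), and turned untreated *Gabrb1* to 0.894 (0.625 to 1.24) and *Gabrg1* to 0.928 (0.565 to 1.45). Where cells with over 10% mitochondrial UMIs were left out, *Gabrb1* (5.42 and 2.70) and *Gabrg1* (3.53 and 3.40) were called higher as well (22.6% of all genes). *Gabre* was no longer measured. That limit cut untreated *Aqp4* cells from 817 to 203, *Mog* cells from 387 to 268 and *Dbh* cells from 7 to 1. The glial sums weight classes by UMIs too, and untreated *Aqp4* cells held 775 of the 862 glial UMIs of *Gabrb1*. Untreated *Aqp4* and *Mog* cells held 2553314 and 3547376 UMIs, and 1460000 and 762000 after thinning. The part of this mix in the ratios was not tested.

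**Figure D2:**
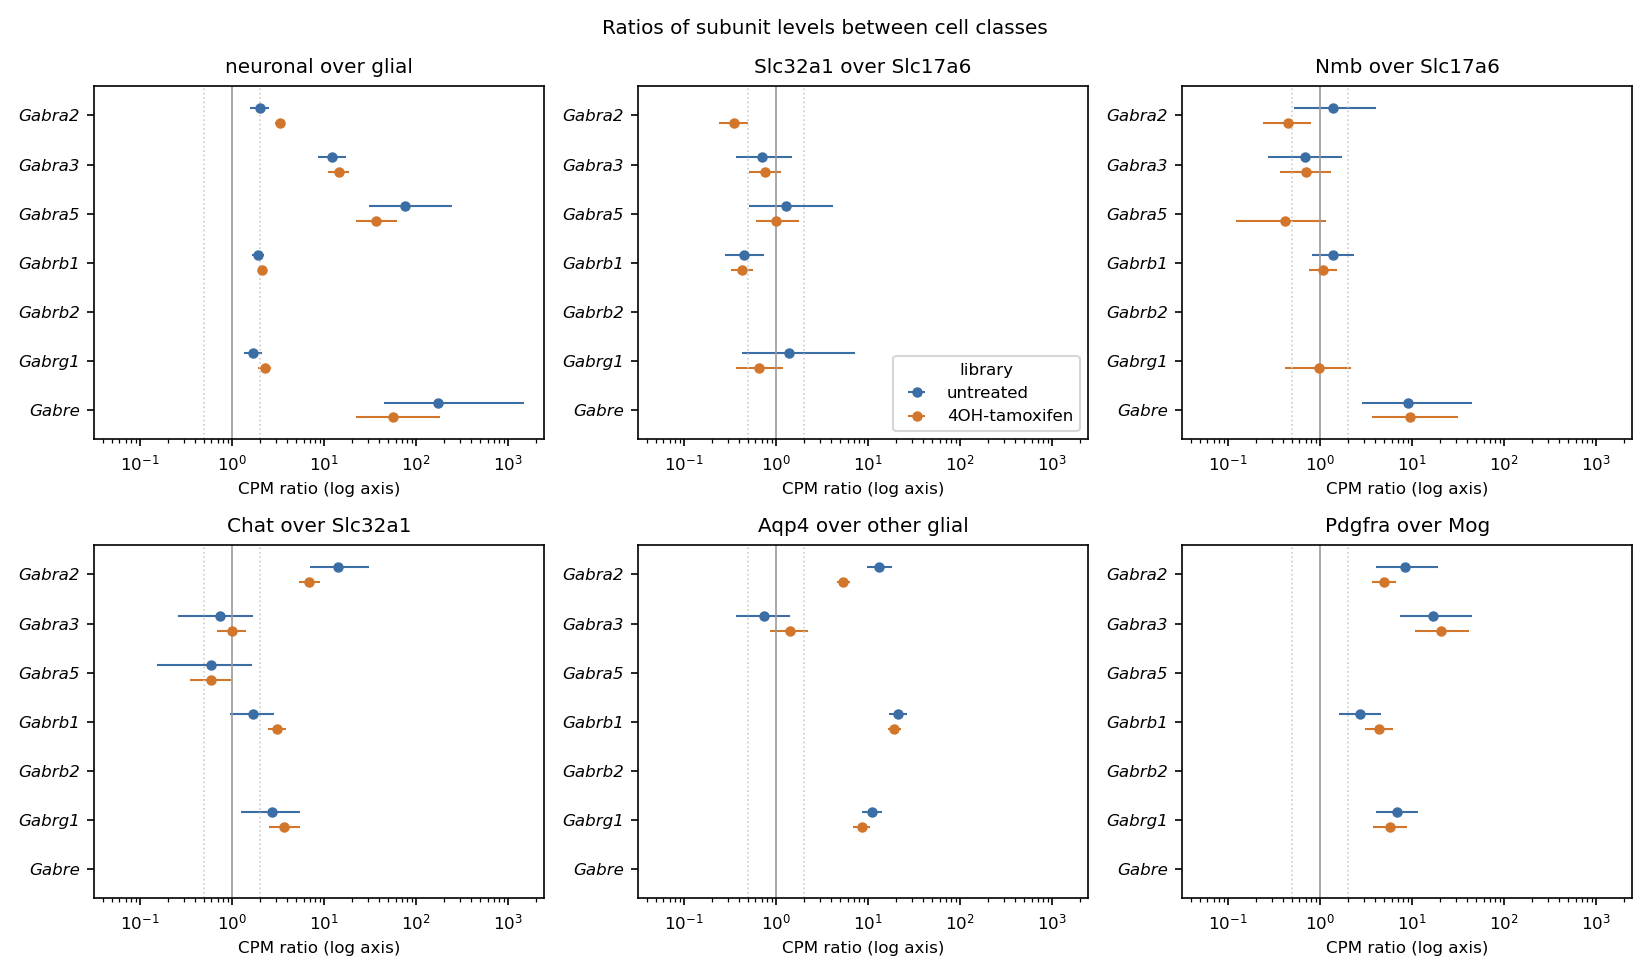
CPM ratio of each subunit gene between cell classes (log axis) in 6 comparisons, in the untreated (blue) and 4OH-tamoxifen (orange) library, with exact conditional 95% intervals as bars. The solid line marks a ratio of 1 and dotted lines ratios of 2 in each direction, and a gene with fewer than 20 UMIs in a library is left out there. *Gabre* stands at 8.96 and 9.57 in *Nmb* over *Slc17a6* and *Gabra2* at 14.3 and 6.88 in *Chat* over *Slc32a1*.

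In the *Nmb* against the *Slc17a6* class, *Gabre* was the 1 of 4 measured subunits called higher. It reached 20 UMIs only through the *Nmb* class, with 39 and 30 UMIs against 3 and 5. Its ratio was 8.96 (2.85 to 45.3) in untreated cells and 9.57 (3.67 to 31.6) after 4OH-tamoxifen, and 2.24% of 2505 genes were called higher and 2.24% lower. *Gabrb1* and *Gabra3* were not called, with ratios of 1.38 (0.828 to 2.35) and 1.09 (0.765 to 1.54), and 0.689 (0.271 to 1.75) and 0.709 (0.367 to 1.31). *Gabra2*, the other measured subunit, was not called either, at 1.38 (0.521 to 4.04) in the untreated and 0.456 (0.244 to 0.805) in the 4OH-tamoxifen library, which is past 2-fold lower in the latter alone. The call of *Gabre* was lost where cells with over 10% mitochondrial UMIs were left out, with a median of 15.7% and 11.5% in the *Nmb* class, and under thinning, where 0 members reached 20 UMIs in both libraries. The thinned levels of *Gabre* were 271 and 167 CPM in the *Nmb* class against 0 and 33.9 CPM in the *Slc17a6* class, and the ratios under the mitochondrial limit were 5.34 (0.611 to 63.9) and 5.11 (0.993 to 32.9).

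The *Slc32a1* class, of inhibitory neurons, against the *Slc17a6* class gave 0 of 4 measured subunits higher (1.51% of 6216 genes) and 1 lower, *Gabrb1* (1.03%). Its ratio was 0.448 (0.278 to 0.746) and 0.430 (0.327 to 0.569). *Gabra2* was lower in the *Slc32a1* class too, at 0.346 (0.243 to 0.498) in the 4OH-tamoxifen library, but was under 20 UMIs in the untreated one. *Gabra5* was at 1.28 (0.505 to 4.14) and 1.01 (0.604 to 1.76), and *Gabra3* at 0.708 and 0.753 with intervals that hold 1. *Gabrg1* lay on either side of 1, at 1.40 (0.432 to 7.22) and 0.6496 (0.370 to 1.19), and both intervals hold 1. The 13 untreated *Slc17a6* cells limit these ratios, and the *Gabrb1* call rests on 1 of them. Without the untreated *Slc17a6* cell with 11 UMIs the ratio was 0.714 (0.391 to 1.41) and the call was lost. It was also lost with higher marker minimums, with the mean of each cell's CPM and under thinning, where the untreated ratio turned to 1.30 (0.312 to 11.6).

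*Chat* against *Slc32a1* neurons gave 2 of 5 measured subunits higher, *Gabra2* and *Gabrg1*, where 4.81% of 6387 genes were, and 0 lower (6.17%). *Gabra2* was 14.3 times (7.03 to 30.8) and 6.88 times (5.30 to 9.01) as high, and *Gabrg1* 2.72 times (1.25 to 5.55) and 3.72 times (2.55 to 5.48). In the untreated library *Gabra2* reached 20 UMIs only through the *Chat* class, with 28 UMIs against 12. *Gabrb1* reached 1.68 (0.957 to 2.83) and 3.10 (2.49 to 3.87). In the other direction *Gabra5* was at 0.597 (0.155 to 1.65) and 0.598 (0.346 to 0.988), and *Gabra3* at 0.734 and 0.993. Under thinning neither call was made. *Gabra2* kept ratios of 13.7 (4.65 to 48.5) and 8.15 (4.88 to 14.1) but rested on 14 and 5 UMIs in the untreated library, under the limit of 20, and *Gabrg1* was at 4.88 (1.12 to 21.2) and 1.88 (0.873 to 3.86). With cells over 10% mitochondrial UMIs left out, *Gabra2* was called higher at 13.0 and 4.16, *Gabra3* was called lower at 0.486 and 0.468 with intervals that hold 1, and *Gabrg1* was not measured.

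Among glia, *Aqp4* cells were higher than the *Pdgfra*, *Mog* and *C1qa* classes together in 3 of 4 measured subunits, where 13.1% of 12426 genes were called higher, and 0 were lower (10.2%). *Gabrb1* stood at 21.0 (16.8 to 26.5) and 19.4 (16.6 to 22.8), *Gabra2* at 13.1 (9.70 to 18.1) and 5.40 (4.63 to 6.30), and *Gabrg1* at 11.1 (8.72 to 14.4) and 8.57 (6.94 to 10.7). All 3 lie on chromosome 5. *Gabra3* was not called, at 0.747 and 1.41 with both intervals holding 1. Between *Pdgfra* precursors and *Mog* oligodendrocytes, 4 of 4 measured subunits were called higher in the precursors, where 22.0% of 10555 genes were, and 0 lower (8.78%). *Gabra3*, which passed the limit of 20 UMIs only through *Pdgfra* cells (33 and 42 UMIs against 7 and 13), had the ratios 16.9 (7.35 to 45.3) and 20.6 (10.8 to 41.8), *Gabra2* 8.47 and 4.97, *Gabrg1* 6.87 and 5.75, and *Gabrb1* 2.71 and 4.41. In the untreated library *Gabra2* passed that limit only through *Pdgfra* cells too, with 26 UMIs against 11. With higher marker minimums *Gabra2* (9.37 and 4.59) and *Gabra3* (15.6 and 16.3) kept such ratios but were no longer measured. This left 2 calls, beside 21.7% of all genes. The *Mog* levels of *Gabra2* and *Gabrb1* are below those of *C1qa* cells, and that of *Gabrg1* is equal to or below it.

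The make-up of the UMIs of the 7 genes differed between classes as well. The 7 genes together had 1288 and 1349 CPM in *Dbh* cells, 653 and 1032 CPM in *Chat*, 785 and 673 CPM in *Nmb*, 567 and 566 CPM in *Aqp4*, 301 and 363 CPM in *Slc32a1*, and 22.6 and 33.8 CPM in *Mog* cells. *Gabre* made up 33.1% (exact binomial 95% interval 24.7 to 42.3) and 22.1% (15.4 to 30.0) of them in the *Nmb* class and at most 5.66% in any other class. Since reads are not scaled by length, these shares are compared between classes and not between genes. *Gabrb1* made up 53.6% and 58.2% of the *Aqp4* sum, against 34.5% and 31.3% in *Slc32a1* cells. *Gabra3*, at 25.0% and 23.2%, and *Gabra5*, at 20.5% and 16.4%, took larger shares in *Slc32a1* than in *Chat* cells, where they were at 8.45% and 8.09%, and at 5.63% and 3.44%. *Gabra2* made up 39.4% and 40.1% in *Chat* and 6% and 16.6% in *Slc32a1* cells.

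**Figure D3:**
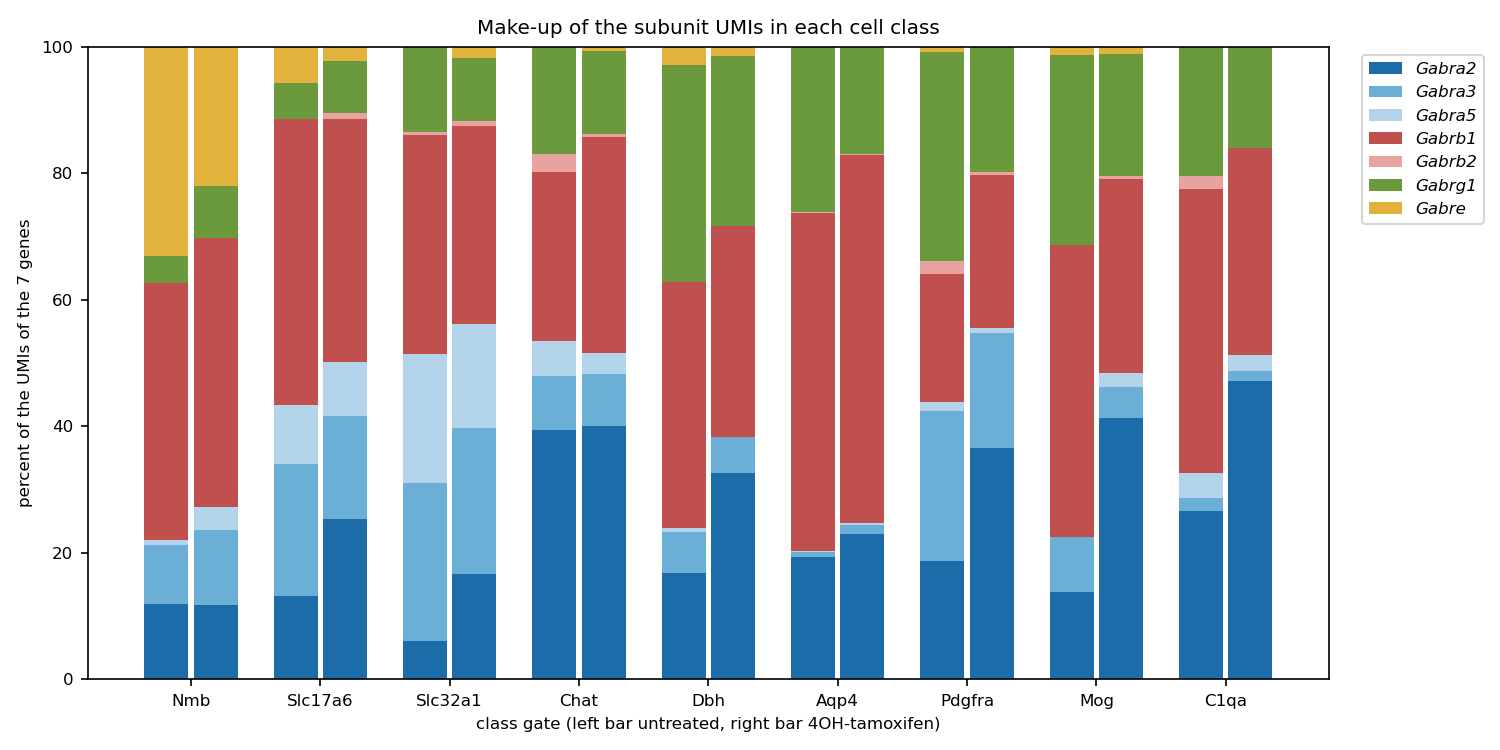
Share of each gene in the UMIs of the 7 subunit genes (percent, stacked to 100) in each cell class, with the untreated library as the left and the 4OH-tamoxifen library as the right bar. *Gabre* (yellow) fills 33.1% and 22.1% of the *Nmb* bars, and *Gabrb1* (red) 53.6% and 58.2% of the *Aqp4* bars. Bars of the *Mog* and *C1qa* classes rest on 49 to 264 UMIs.

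Inhibitory neurons were divided further by *Sst*, *Pvalb* and *Cck*, with at least 2 UMIs of exactly 1 of these. *Gabra5* was at 84.5 CPM (53.5 to 127) and 69.1 CPM (46.6 to 98.7) in the 35 and 91 *Sst* cells. In the 14 and 34 *Cck* cells it had 0 UMIs, which allows up to 27.6 CPM, and 22.6 CPM (4.67 to 66.1) from 3 UMIs. *Gabra3* had 55.1 CPM (30.8 to 90.8) and 57.6 CPM (37.3 to 85.0) in *Sst* and 156 CPM (90.9 to 250) and 113 CPM (63.3 to 187) in *Cck* cells. The *Gabra3* intervals do not overlap in the untreated library and overlap in the 4OH-tamoxifen library. *Gabrb1* was at 58.8 and 108 CPM in *Sst* and 101 and 219 CPM in *Cck* cells. The 29 and 108 cells with none of these markers had *Gabra5* at 66.7 CPM (37.3 to 110) and 49.4 CPM (31.3 to 74.1), which overlap the *Sst* values, and *Gabra3* at 62.3 CPM (34.0 to 104) and 105 CPM (77.8 to 139), near the *Sst* value in the untreated and the *Cck* value in the 4OH-tamoxifen library. *Pvalb* held 1 and 9 cells, too few for a level.

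The other subunits give the context. Of 9 other GABA-A subunit genes reported here, 3 were measured between neurons and glia and 2 of them, *Gabrg3* and *Gabrq*, were called higher in neurons than in glia (22.3% of all genes), at 39.6 and 36.2 CPM against 1.98 and 3.65 CPM for *Gabrg3* and 42.2 and 27.7 CPM against 0.467 and 1.05 CPM for *Gabrq*, which reached 20 UMIs only through the neurons, with 4 and 15 UMIs in glia. In the untreated library *Gabrg3* also reached 20 UMIs only through the neurons, with 46 UMIs against 17. *Gabra4*, the other of the 3, was not called and had 11.2 and 12.5 CPM in neurons against 21.6 and 24.1 CPM in glia. It was called higher in *Aqp4* than in other glial cells (13.1% of all genes), at 68.1 CPM (58.4 to 79.1) and 75.2 CPM (66.7 to 84.4), and its start overlaps that of *Gabrb1*. In the untreated library *Gabra4* reached 20 UMIs there only through *Aqp4* cells, with 174 UMIs against 11. *Gabrq*, the θ subunit gene beside *Gabre* and *Gabra3*, was called higher in *Nmb* than in *Slc17a6* cells (2.24% of all genes). It reached 20 UMIs only with those of the *Nmb* class, at 17 and 22 UMIs against 4 and 8. The ratio was 2.93 in the untreated library, with an interval of 0.955 to 11.97 that holds 1, and 4.38 (1.88 to 11.4) in the other. The *Slc17a6* class had 38.6 CPM from 4 UMIs, 3 of them in 1 cell, and 24.8 CPM from 8 UMIs. The level of *Gabrq* was 113 CPM (65.8 to 181) and 109 CPM (68.2 to 165) in the *Nmb* and 165 CPM (103 to 250) and 163 CPM (94.8 to 260) in the *Dbh* class. Between *Slc32a1* and *Slc17a6* neurons, *Gabrg3* was called lower (1.03% of all genes), at 21.1 and 27.8 against 96.5 and 62.0 CPM, with 5 of the 10 untreated *Slc17a6* UMIs in 1 cell. Untreated *Slc32a1* cells held 14 UMIs of *Gabrg3*, so 20 UMIs were reached only with both classes.

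Receptors are held at synapses by gephyrin and its partners. Of 7 anchoring and trafficking genes reported here, 4 were called higher in neurons than in glia, *Nlgn2*, *Lhfpl4*, *Shisa7* and *Insyn1*, beside 22.3% of all genes. None was called among the neuronal classes, where few genes were. Of all genes, 1.51% were called higher and 1.03% lower in *Slc32a1* over *Slc17a6*, and 4.81% and 6.17% in *Chat* over *Slc32a1*. In *Nmb* over *Slc17a6* 2.24% were called in each direction, and only 4 of the 7 were measured. *Gphn*, gephyrin itself, lay at the limit between neurons and glia, with ratios of 1.98 (1.48 to 2.61) and 2.01 (1.65 to 2.44). It had 55.6 and 62.5 CPM in *Slc32a1*, 66.7 and 51.4 CPM in *Pdgfra* and 11.5 and 20.1 CPM in *C1qa* cells. *Pdgfra* cells were higher than *Mog* cells in 5 of 7, *Gphn*, *Nlgn2*, *Lhfpl4*, *Shisa7* and *Insyn1*, beside 22.0% of all genes. *Nlgn2*, the adhesion molecule of inhibitory synapses, stood at 129 and 154 CPM there against 38.9 and 37.9 CPM. In *Aqp4* over other glial cells, *Shisa7* was the 1 of 7 called lower, with ratios of 0.437 and 0.469, beside 10.2% of all genes.

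Profiles over the 18 points (9 classes in 2 libraries) were compared by Pearson's r of log2(CPM + 10), as a description, since the points share libraries and depth. *Gabra2*, *Gabrb1* and *Gabrg1* were the most alike of the 7 genes, at r = 0.855 for *Gabra2* and *Gabrb1*, 0.853 for *Gabra2* and *Gabrg1* and 0.818 for *Gabrb1* and *Gabrg1*. *Gabre* and *Gabra3*, neighbours on the X chromosome, had r = 0.558. Among 11813 genes, those most like *Gabre* were *Adcyap1* (r = 0.966), which encodes the peptide PACAP, *Cpne7* (0.958) and *Rgs9* (0.925). For *Gabra5* they were *Sema3a* (0.946), *Scn1a* (0.931) and *Clstn2* (0.927), and for *Gabra3* *Nsg1* (0.989), *Oprl1* (0.986) and *Prrc2b* (0.986). *Fgfr1* (0.950), *Gpsm1* (0.935) and *Dtx1* (0.926) came first for *Gabrb1*. *Epdr1* came first for both *Gabra2* (0.903) and *Gabrg1* (0.895), followed by *Fam49a* (0.881) and *Pygb* (0.877) for *Gabra2*, and by *Nqo1* (0.869) and *Dtx1* (0.863) for *Gabrg1*. The 20 UMIs of *Gabrb2* are too few for such a measure.

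The last comparison set the 4OH-tamoxifen against the untreated library within each class. Of the 63 pairs of a gene and a class, 37 had at least 20 UMIs over both libraries, and 8 of these were past a ratio of 2 toward 4OH-tamoxifen and 0 toward untreated. The share of all genes past 2 toward 4OH-tamoxifen was 5.38% in *Nmb*, 2.82% in *Aqp4* and 12.7% in *Chat* cells, and is given for the other classes beside their ratios. Toward untreated it was 2.91% in *Nmb*, 6.53% in *Slc17a6*, 1.51% in *Slc32a1*, 8.12% in *Chat*, 6.42% in *Dbh*, 2.48% in *Aqp4*, 2.71% in *Pdgfra*, 3.46% in *Mog* and 2.33% in *C1qa* cells. *Gabra2* made up 6 of the 8 pairs. It was higher by 2.57 times (1.17 to 6.69) in *Slc17a6* (10.3% of genes), 3.34 times (1.81 to 6.73) in *Slc32a1* (3.96%), 2.03 times (1.25 to 3.34) in *Dbh* (6.05%) and 2.64 times (1.68 to 4.27) in *Pdgfra* cells (2.62%). In the classes at background it was higher by 4.50 times (2.42 to 9.29) in *Mog* (2.38%) and 4.65 times (2.52 to 9.25) in *C1qa* cells (6.12%). *Chat* and *Aqp4* cells had smaller ratios of 1.61 (1.08 to 2.47) and 1.19 (1.03 to 1.39), and the *Nmb* class 0.850 (0.389 to 1.88). Thinning turned the direction in *Dbh* cells, to 0.778 (0.256 to 2.60), and in *Chat* cells, to 0.781 (0.428 to 1.52), and left 1.31 (0.484 to 4.42) in *Slc32a1* and 1.22 (0.998 to 1.501) in *Aqp4* cells. The ratio stayed past 2 under thinning in *Pdgfra* cells, at 2.43 (1.36 to 4.51), in *Mog* cells, at 4.18 (1.33 to 21.2), and in *C1qa* cells, at 4.13 (1.80 to 11.1). The level in the *C1qa* class, from 8.80 to 40.9 CPM, moved with the others, and its part in them was not tested.

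**Figure D4:**
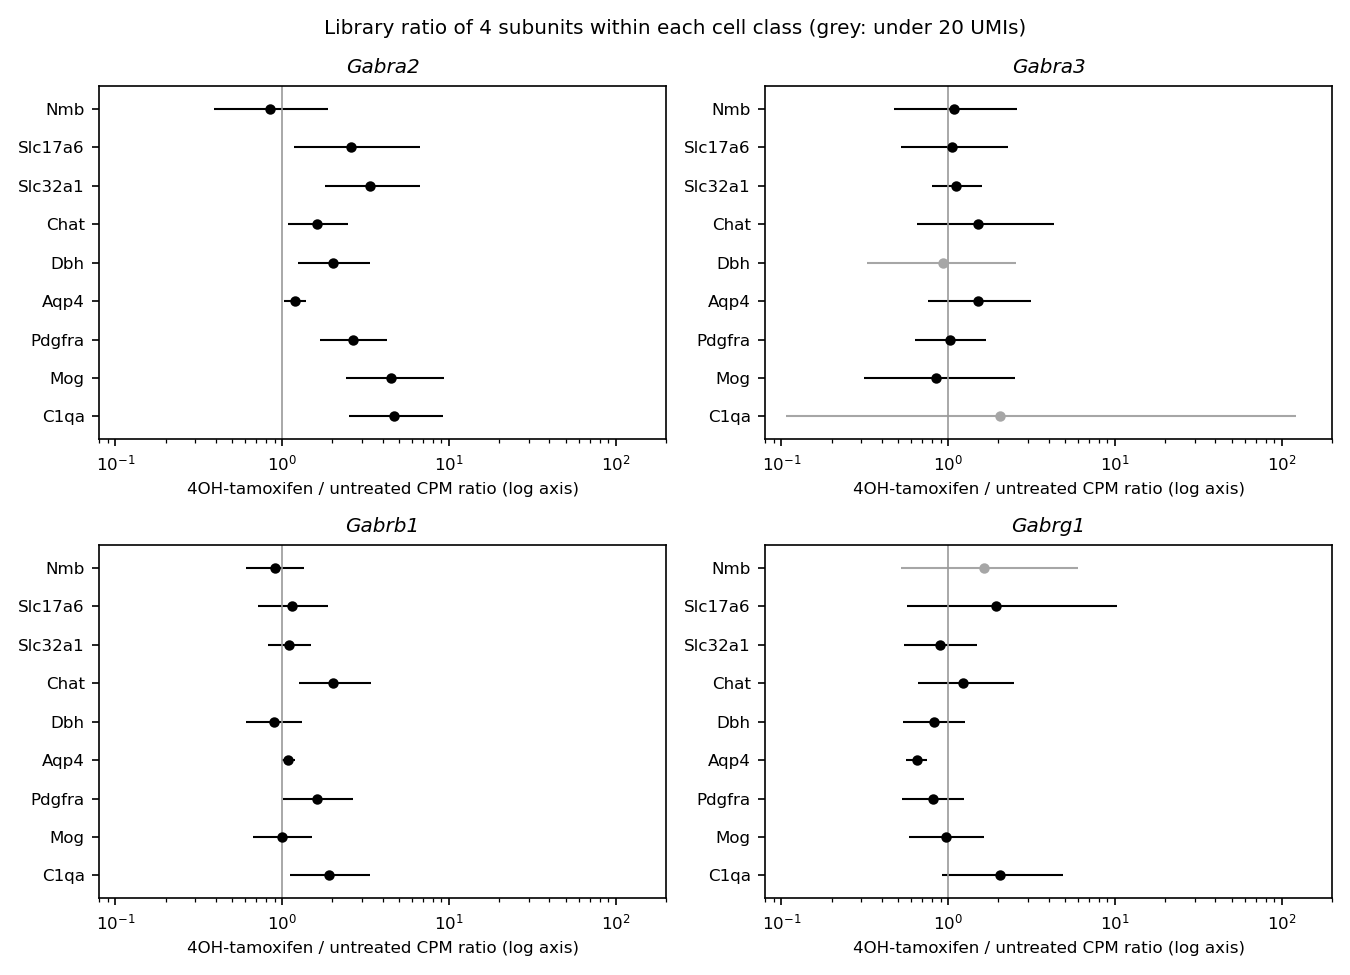
CPM ratio of the 4OH-tamoxifen to the untreated library (log axis) for 4 subunit genes in each cell class, with exact conditional 95% intervals as bars, and grey where both libraries together hold fewer than 20 UMIs. *Gabra2* lies above 1 in 8 of 9 classes, from 1.19 in *Aqp4* to 4.65 in *C1qa*, while *Gabra3* intervals all hold 1.

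*Gabrb1* in *Chat* cells (2.01, 1.26 to 3.42, beside 12.7% of genes) and *Gabrg1* in *C1qa* cells (2.05, 0.916 to 4.90) were the other pairs past 2. The *Gabrb1* ratio turned to 0.914 (0.436 to 2.05) where cells with over 10% mitochondrial UMIs were left out. Of the 37 pairs, 11 had an interval above 1 and 2 below 1, beside 6106 (9%) above and 7224 (10.6%) below among all 67850 pairs of a gene and a class with 20 UMIs. The latter were *Gabre* in the *Nmb* class at 0.572 (0.343 to 0.945) and *Gabrg1* in the *Aqp4* class at 0.647 (0.559 to 0.749). In the *Nmb* class its 4 own markers fell from 5432 to 3907 CPM together, while the 5 *Mog* markers went from 1190 to 1865 CPM and the 6 *Aqp4* markers from 858 to 1296 CPM, and their part in the *Gabre* ratio was not tested. With thinning the *Gabre* ratio was 0.615 (0.278 to 1.39). After thinning, 27.3% of untreated and 19.2% of 4OH-tamoxifen *Aqp4* cells had a UMI of *Gabrg1*, and before it 35.1% and 19.3%. In the *Aqp4* class the 3 endothelial markers fell from 517 to 209 CPM and the 3 pericyte markers from 330 to 156 CPM, and their part in the *Gabrg1* ratio was not tested. *Gabra3* had ratios between 0.844 and 1.51 in its 7 classes with 20 UMIs, with 1 in every interval.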

How the data were processed

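Reads were converted with bcl2fastq 2.18.0.12 and UMIs counted with Cell Ranger 2.2.0 on mm10, per the labels and the submitters' processing notes, and the authors deposited the raw UMI count of each gene and cell barcode, without normalization. The 3767 untreated and 10241 4OH-tamoxifen barcodes hold 18496942 and 34704167 UMIs. Doublets marked by Scrublet in scanpy 1.11.5 at its automatic threshold (6 and 544 barcodes) were removed, and cells were kept from 800 genes up if hemoglobin genes held at most 50 and mitochondrial genes at most 20% of their UMIs.

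Neuronal classes needed at least 3 UMIs of *Snap25*, *Syp*, *Tubb3* and *Elavl2* together and at least 1 UMI of their marker (2 of *Nmb*). Glial classes needed at least 2 UMIs of their marker and at most 2 of those neuronal genes, with limits on the markers of other classes. UMIs were summed per class and library and scaled to CPM. Levels carry exact Poisson, ratios exact conditional and shares exact binomial 95% intervals, from scipy 1.17.1, and a limit for 0 UMIs is that of 3 UMIs, all for counting error only. Thinning drew 2000 UMIs per cell and left out shallower cells. The ratios and calls were tested on simulated Poisson counts with known folds, which hold no spread between cells. Genes most like a member were sought among genes with at least 100 UMIs that were not used for gating. The members and gene lists were chosen with earlier results of these data known. All 7 members are named in every class, and other listed genes where called. Some subunit and anchoring genes of these lists are not reported here and were left out of their counts, and *Gabra4* in glia, *Gphn* and *Slc6a2* were named after their values were seen. The clusters, filters, gates, scalings and call limits tried as alternatives are given in the closing section.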

Additional observations from a re-analysis of the deposited data

Results flagged for a closer look

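Cells outside the 9 classes carried subunit UMIs above the level of the *C1qa* class, with intervals that did not overlap in either library. The share of all genes with such a gap was not tested, so whether it is particular to the subunits is not known. In ungated cells with 3 or more UMIs of the neuronal genes (221 untreated and 713 4OH-tamoxifen cells), *Gabra2* was at 59.5 and 137 CPM, *Gabra3* at 17.7 and 44.9 CPM, *Gabrb1* at 72.1 and 124 CPM, *Gabrg1* at 29.2 and 62.1 CPM and *Gabre* at 16.6 and 8.74 CPM in the untreated and 4OH-tamoxifen library. In the 1130 and 3273 ungated cells with fewer neuronal UMIs, *Gabra3* was at 5.63 and 9.90 CPM, *Gabrb1* at 30.0 and 45.3 CPM and *Gabrg1* at 25.1 and 25.2 CPM. These cells met the gate of no class.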

How the results depend on the processing

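The 7 genes were recomputed under other limits on genes (500 and 1200) and mitochondrial UMIs (10%), other doublet calls, higher marker minimums, a neuronal minimum of 6 UMIs, classes from 34 Leiden clusters, the mean of each cell's CPM, thinning, median-of-ratios scaling and other call limits. Leaving out the top cell of a class (the cell with the most UMIs of a member), leaving *Dbh* cells out of neurons and leaving out *Dbh* cells with vessel markers were added after seeing the data. Of 170 counts of called members, 155 stayed within 1.5 times. Under median-of-ratios scaling 14.1% of all genes were called higher in neurons than in glia and 28.3% lower. Thinning left 1 member higher in neurons (*Gabra3*, beside 18.5% of all genes), 0 higher in *Nmb* over *Slc17a6* (2.68%) and 0 higher in *Chat* over *Slc32a1* cells (4.64%). *Gabra2* stayed measured in neurons and fell under the limit, whereas between *Chat* and *Slc32a1* cells it kept its ratio with too few UMIs to call. Without the *Dbh* class 3 members were higher in neurons, not *Gabra2*, beside 22.1% of all genes. At most 10% mitochondrial UMIs gave 0 higher in *Nmb* over *Slc17a6* (0.84% of all genes). It gave 1 higher (*Gabra2*, 7.34%) and 1 lower (*Gabra3*, 10.4%) in *Chat* over *Slc32a1*. Members lower in *Slc32a1* than in *Slc17a6* cells numbered 0 with higher marker minimums (1.11% of all genes), with the mean CPM (0.933%) and with thinning (0.272%). They also numbered 0 without the top *Slc17a6* cell. A minimum of 1 UMI gave 3 of 7 lower in this comparison (4.33% of all genes) and 1 of 6 lower (*Gabra5*) in *Nmb* over *Slc17a6* (8.6%). *Gabra5* was the 1 member lower in *Chat* over *Slc32a1* with clusters (5.02% of all genes) and with a ratio of 1.5 (15.4%). Higher marker minimums gave 2 higher in *Pdgfra* over *Mog* (*Gabrb1* and *Gabrg1*, beside 21.7% of all genes). They left *Gabra2* uncalled in neurons, where 23.7% of all genes were called higher. Reversed log2 ratios of 4OH-tamoxifen over untreated were −0.36 for *Gabra2* in *Chat* and −0.36 in *Dbh* cells with thinning and −0.13 for *Gabrb1* in *Chat* cells at 10% mitochondrial UMIs, and *Gabrb1* in *Slc32a1* over *Slc17a6* untreated cells was 0.38 with thinning. Where no construction shows it, the cause was not tested. Of 1876 levels 136 moved outside their counting interval. Clusters gave no *Slc17a6* or *Dbh* class and so no value there. No paired analysis of 4OH-tamoxifen against untreated was possible because each condition has 1 library. The class ratios were taken within each library, and no result comes from a test.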

Other observations

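The few cells of the *Dbh* class were divided by *Slc6a2*, the noradrenaline transporter gene, a division chosen after the values were seen. Of the subunits, *Gabrg1* alone had a ratio interval clear of 1 in both libraries. The share of all genes with such intervals was not tested, so whether *Gabrg1* stands out is not known. The intervals cover counting error only and not the spread between cells. *Gabrg1* was at 671 CPM (488 to 901) in the 4 untreated cells without *Slc6a2* and 221 CPM (124 to 364) in the 3 with it. In the 4OH-tamoxifen library it was at 516 CPM (350 to 732) in 10 and 158 CPM (63.4 to 325) in 6 cells, so the ratio was 3.04 (1.66 to 5.88) and 3.27 (1.41 to 8.80). *Gabrb1* was at 442 against 559 CPM and 333 against 608 CPM, with ratios of 0.791 (0.470 to 1.32) and 0.547 (0.291 to 1.01), which hold 1. *Gabra2* had ratios of 1.47 (0.661 to 3.37) and 1.26 (0.670 to 2.44), which hold 1 too. In untreated cells *Gabrg1* had 1 to 18 UMIs per *Dbh* cell, with a median of 8.

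Of the 24 untreated *Nmb* cells, 18 had a UMI of *Gabre*, 9 of *Gabrq* and 9 of both. Of the 55 in the 4OH-tamoxifen library, 24 had *Gabre*, 15 *Gabrq* and 7 both.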
